A study of Mus musculus with 8 samples.

Results

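The transcripts of 8 mouse genes at the entry of interferon signaling were measured in cultured dendritic cells derived from bone marrow, with and without S100A8/A9. They are the gene of interferon beta (Ifnb1), the 4 receptor chains for type I and type II interferons (Ifnar1, Ifnar2, Ifngr1 and Ifngr2), the kinases Jak1 and Tyk2, and the feedback inhibitor Socs1. The genes were taken by symbol. All 8 were among the 55450 genes of the expression table that holds replicates 1 to 3, and 7 were among the 24848 genes of a separately made table that holds replicate 4. The marrow donors were SS dry eye mice, where SS stands for Sjögren's syndrome, so vehicle and treated cultures shared the disease background. The labels give neither strain nor age of the mice. Vehicle cultures received PBS, and the other cultures received recombinant S100A8/A9, a pair of calcium-binding proteins released by activated myeloid cells. There were 4 libraries in each group, and the dose and time of treatment are not given in the labels. The cell type field names dendritic cells, while the sample titles read BMDMs, an abbreviation usually used for macrophages. The labels do not say that replicates came from separate animals or cultures, so the p-values measure only the spread between these libraries, which may be technical.

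Type I interferons, such as interferon beta and the interferon alphas, bind a receptor made of IFNAR1 and IFNAR2, which carry the kinases TYK2 and JAK1. Interferon gamma binds IFNGR1 and IFNGR2, which carry JAK1 and JAK2. The kinases phosphorylate STAT proteins, and these switch on interferon-stimulated genes, among them Socs1 and Usp18, whose products restrain the receptors in turn. In dendritic cells and macrophages this circuit is known to follow sensing of microbes, for example through TLR4, a receptor to which S100A8/A9 can bind.

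Values were read as FPKM, fragment counts divided by transcript length and by sequencing depth. This unit allows levels of different genes to be set side by side within a library. Low values implied roughly 22800000 to 25100000 reads per library in replicates 1 to 3, and 31900000 and 33400000 reads in replicate 4. The value of 1 read was derived differently in each table, and in replicate 4 it was taken to be 1 mate of a pair. Read numbers of the 2 tables are therefore not to be compared. Tests used limma on log2(FPKM + 1) of replicates 1 to 3, for the 11387 genes that reached 1 FPKM in 3 or more of these 6 libraries. Without a term for the replicate number, limma called 0 genes at an adjusted p under 0.05, while 344 had an unadjusted p under 0.05 and the lowest adjusted p was 0.736. With the replicate number as a block it called 59, of which 57 were higher with S100A8/A9. Of the 8 macrophage markers examined, 8 were at 1 FPKM or more in all 6 libraries, against 5 of 7 dendritic cell markers. The dendritic cell marker Itgax was at 47.2 to 66.9 FPKM, Zbtb46 at 2.13 to 3.62 and Flt3 at 0.309 to 0.921. The others were Cd74 at 2530 to 3823 FPKM, H2-Ab1 at 327 to 671, Ccr7 at 141 to 227 and Dpp4 at 0.301 to 0.979. Mean log2(FPKM + 1) of macrophage markers ranged from 4.68 to 5.89 with vehicle and from 4.80 to 6.01 with S100A8/A9, and that of dendritic cell markers from 5.08 to 5.44 and from 5.06 to 5.45. In bulk libraries such as these, fewer cells of a type and less RNA per cell cannot be told apart.

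Of the 7 genes that could be tested, 0 passed the threshold in limma without the block (0% of all tested genes) and 0 with it (0.518% of all tested genes), and at an unadjusted p under 0.05 there were also 0 in either fit. Over all tested genes 344 (3.02%) had an unadjusted p under 0.05 without the block and 908 (7.97%) with it, so a count of 0 among 7 genes is near the background. For each of the 7 the values of the groups overlapped. Over all tested genes the groups did not overlap for 6.65%, so this too is near the background. The median log2 difference of the 7 was 0.04, beside 0.025 over all tested genes. Differences ran from -0.13 for Ifngr1 to 0.18 for Socs1. Transcripts of Ifnb1 were at 0 in 5 of the 6 libraries of replicates 1 to 3, and in the other, a vehicle library, at a value worth about 3 reads.

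**Figure D1:**
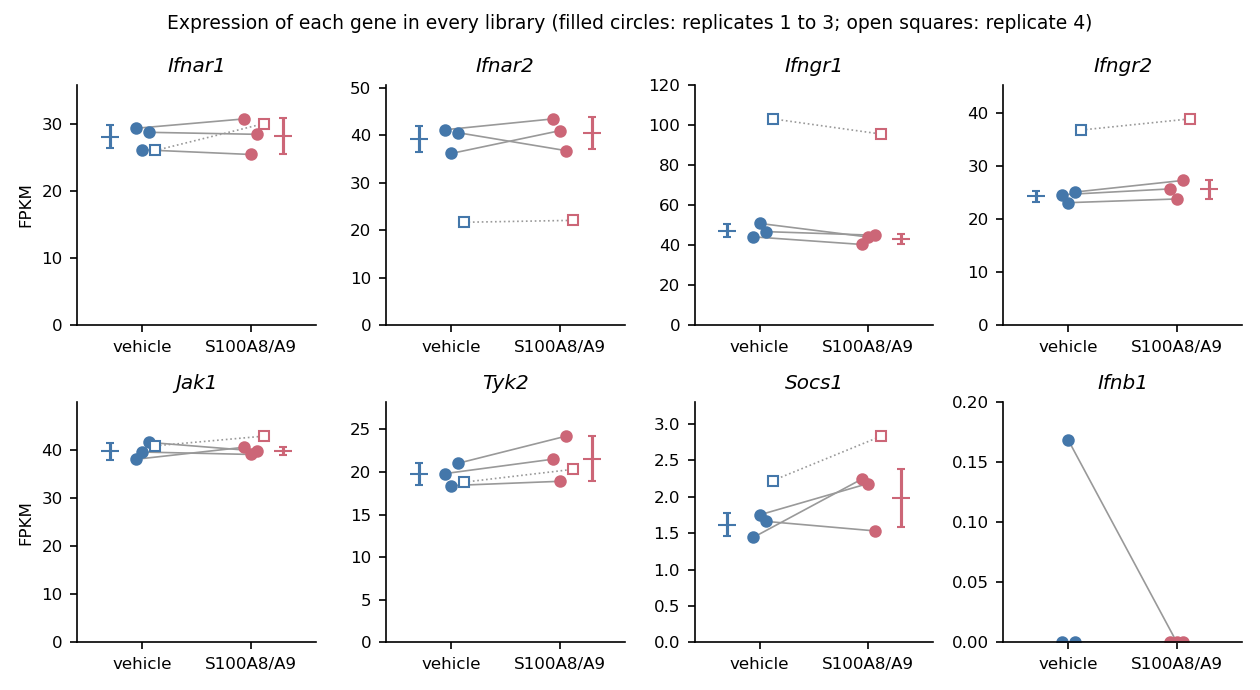
FPKM of each gene (vertical axis, linear from 0) in vehicle and S100A8/A9 libraries, with a line joining libraries of the same replicate number. Horizontal ticks with bars are the mean and SD of replicates 1 to 3, omitted for Ifnb1. Groups overlap in every panel, and replicate 4, from the second table, stands apart for Ifngr1, Ifngr2 and Ifnar2.

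Ifnb1 encodes interferon beta, the type I interferon that myeloid cells usually make first on microbial sensing. It was listed at 0 FPKM in vehicle replicates 1 and 3 and at 0.168 FPKM in vehicle replicate 2. It was listed at 0 FPKM in S100A8/A9 replicates 1, 2 and 3. At the estimated depths a value of 0 allows up to 3 reads, or 0.159 to 0.176 FPKM depending on the library, so the single value above 0 lay at that limit and no difference between groups was detectable. The table of replicate 4 does not list Ifnb1, and each of its 24848 genes had a value above 0 in at least 1 of its libraries. Of 142 ribosomal, proteasome, RNA polymerase II and common reference genes, 0 were at 0 in all 6 libraries. In at least 1 library 4 were at 0, namely Rpl3l, Rpl39l, Rpl10l and Psmb11. Ifnb1 (ENSMUSG00000048806) has a single exon and spans 88522025 to 88522774 on the reverse strand of chromosome 4 in mm10.

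The 250 bases before the annotated start of Ifnb1 are shown because this short promoter is the textbook site where IRF and NF-kB factors meet, and its transcript was near absent here. The sequence is from RefSeq on GRCm38.p6 (chr4:88522795-88523044, reverse strand), 5′ to 3′. Capitals mark matches to AANNGAAA, a core of sites bound by interferon regulatory factors, and to the letters of an NF-kB site, GGGA, any 2 bases and TTCC. Both strands were searched.
Ifnb1: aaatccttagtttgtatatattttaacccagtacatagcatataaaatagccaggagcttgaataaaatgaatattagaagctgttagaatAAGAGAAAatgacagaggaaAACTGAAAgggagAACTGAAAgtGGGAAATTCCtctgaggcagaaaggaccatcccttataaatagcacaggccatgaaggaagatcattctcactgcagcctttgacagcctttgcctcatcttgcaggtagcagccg
AANNGAAA occurred 3 times and the NF-kB letters occurred in 1 place. Of 32851 promoter windows of this length, 21.3% held AANNGAAA and 1.21% held the NF-kB letters. A match describes letters only.

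The other interferon genes were as scarce. Of 20 type I and type III interferon genes examined, Ifnb1 included, 9 were at 0 in all 6 libraries, 11 were above 0 in at least 1, and 0 reached 1 FPKM in any. The highest value was 0.189 FPKM, for Ifnk in S100A8/A9 replicate 1. Of 60 values per group, 8 were above 0 with vehicle and 7 with S100A8/A9. Interferon alpha genes are near copies of each other, so the split of reads among them is uncertain. Of these 20 genes, replicate 4 lists Ifnk alone, at 0.117 FPKM with vehicle and 0 with S100A8/A9. Plasmacytoid dendritic cells are known as strong producers of type I interferon, and 3 of their 7 markers examined reached 1 FPKM in all 6 libraries of replicates 1 to 3. Of these markers Siglech was at 0 in all 6, Tcf4 was at 6.78 to 9.19 FPKM and Bst2, itself a known interferon target, was at 34.4 to 71.5 FPKM.

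Ifng, the gene of the type II interferon made mainly by T and NK cells, stayed under the filter and was not tested. It was at 0.103, 0.151 and 0.369 FPKM in vehicle replicates 1 to 3 and at 0.0494, 0.0213 and 0.0861 FPKM in S100A8/A9 replicates 1 to 3. Replicate 4 had it at 0.194 FPKM in the vehicle and 0.647 FPKM in the S100A8/A9 library. The treated libraries were thus lower in replicates 1 to 3 and higher in replicate 4, at values worth at most about 11 reads in replicates 1 to 3. Mean log2(FPKM + 1) of T and NK cell markers lay between 0.94 and 1.23 with vehicle and at 0.96 in each S100A8/A9 library, and its part in the Ifng values was not tested.

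**Figure D2:**
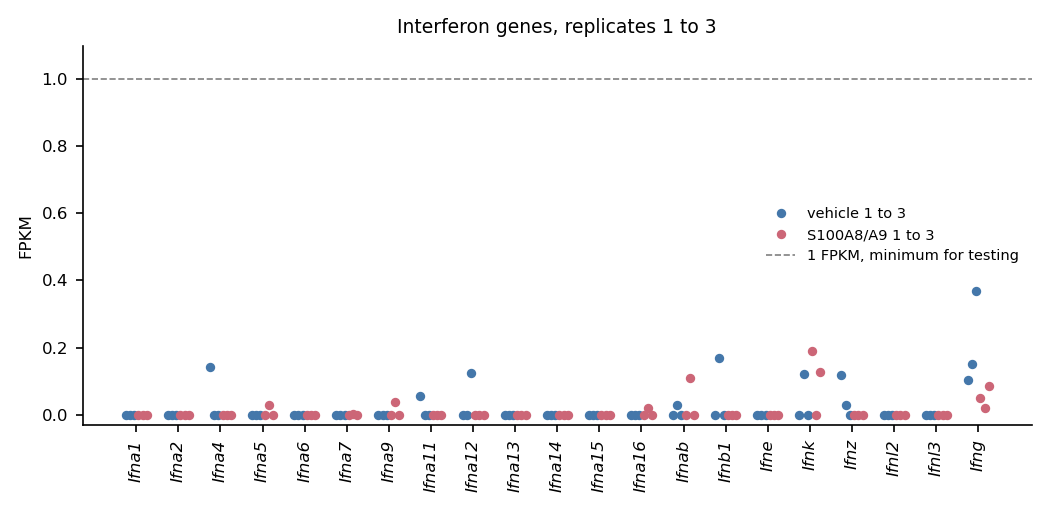
FPKM (linear axis) of 20 type I and type III interferon genes and of Ifng in replicates 1 to 3. Each point is a library and the dashed line marks 1 FPKM, the minimum for testing. Every point lies below 0.4 FPKM, and most lie at 0.

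Transcripts of both chains of the type I receptor were abundant in both groups, and neither chain passed the test. Ifnar1, the chain that carries TYK2, was at 29.3, 26.1 and 28.7 FPKM in vehicle replicates 1 to 3 and at 30.7, 25.4 and 28.4 FPKM in S100A8/A9 replicates 1 to 3. Replicate 2 was the lowest in each group, and the groups overlapped. The means were 28.1 ± 1.71 FPKM in vehicle and 28.2 ± 2.67 FPKM in S100A8/A9 libraries (SD, n = 3 each). The log2 difference was 0.00 ± 0.11 (SE), and its 95% interval, written as a ratio of FPKM + 1, ran from 0.842 to 1.19. In replicate 4 Ifnar1 was at 26.0 FPKM in the vehicle and 30.0 FPKM in the S100A8/A9 library, the largest within-pair ratio of the 4, at 1.15. The others were 1.05, 0.972 and 0.987.

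Ifnar2, the chain that binds interferon most tightly and carries JAK1, was at 41.2, 36.2 and 40.6 FPKM in vehicle replicates 1 to 3. With S100A8/A9 it was at 43.5, 41.0 and 36.8 FPKM. The treated library was higher in replicates 1 and 2 and lower in replicate 3. Its log2 difference was 0.04 ± 0.11 (SE), with an interval from 0.863 to 1.22 as a ratio of FPKM + 1. In replicate 4 the level was about the same with vehicle, 21.7 FPKM, and S100A8/A9, 22.1 FPKM, and lower than in the first table. Ifnar2 is known to be spliced into membrane-bound and soluble forms, which a value per gene does not separate. A gene model named Gm21970 shares exons and strand with Ifnar2 and its neighbor Il10rb, and it was listed at 0 in all 6 libraries.

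The genes of 3 of the 4 receptor chains lie together on chromosome 16, forward strand. In mm10, Ifnar2 (ENSMUSG00000022971) spans 91372783 to 91405589, Ifnar1 (ENSMUSG00000022967) spans 91485238 to 91507441 and Ifngr2 (ENSMUSG00000022965) spans 91547072 to 91565623. Il10rb, a receptor chain shared by IL-10 and type III interferon, lies between Ifnar2 and Ifnar1, and the 4 genes fit in 192.8 kilobases. Il10rb was at 36.3 ± 4.05 FPKM in vehicle and 35.7 ± 1.61 FPKM in S100A8/A9 libraries (SD, n = 3 each), with a log2 difference of -0.02 ± 0.11 (SE). None of the 4 neighbors passed the test in limma with or without the block.

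The chains of the type II receptor differed by small amounts of opposite sign, neither past the threshold. Ifngr1, which binds interferon gamma and carries JAK1, was at 44.1, 50.8 and 46.7 FPKM in vehicle replicates 1 to 3 and at 40.3, 44.0 and 44.9 FPKM in S100A8/A9 replicates 1 to 3. The treated library was lower in each pair, while S100A8/A9 replicate 3 lay above vehicle replicate 1. In replicate 4 it was at 103 FPKM in the vehicle and 95.4 FPKM in the S100A8/A9 library. Within pairs, S100A8/A9 over vehicle was 0.913, 0.867, 0.961 and 0.928 in replicates 1 to 4. Of genes in both tables, 4.54% were lower in all 4 pairs. The log2 difference was -0.13 ± 0.10 (SE), for which limma gave an adjusted p of 1 without the block and 0.704 with it. The interval of the ratio of FPKM + 1 ran from 0.777 to 1.08, and with the block from 0.828 to 1.01. It excluded 1 in 3 alternatives with the block, from 0.824 to 0.976 with median-of-ratios scaling, 0.853 to 0.989 with all 8 libraries and 0.805 to 0.988 without replicate 3, where limma gave adjusted p-values of 0.486, 0.521 and 0.546. Ifngr1 (ENSMUSG00000020009) is on chromosome 10, forward strand, from 19591949 to 19610229 (mm10).

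Ifngr2, the signaling chain that carries JAK2, was at 24.6, 23.1 and 25.1 FPKM in vehicle replicates 1 to 3 and at 25.7, 23.8 and 27.3 FPKM in S100A8/A9 replicates 1 to 3. Replicate 4 gave 36.8 FPKM in the vehicle and 38.9 FPKM in the S100A8/A9 library. The treated library was higher in each of the 4 pairs, with ratios of 1.04, 1.03, 1.09 and 1.06, and 11.7% of genes in both tables were higher in all 4. Its log2 difference was 0.07 ± 0.10 (SE), with an interval from 0.900 to 1.23 as a ratio of FPKM + 1.

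The ratio of the chains within a library does not depend on how libraries are scaled to each other. Ifngr1 over Ifngr2 was 1.79, 2.20, 1.86 and 2.80 in vehicle replicates 1 to 4 and 1.57, 1.85, 1.64 and 2.45 in S100A8/A9 replicates 1 to 4. It was lower with S100A8/A9 in 4 of 4 pairs, by a geometric mean factor of 0.868, and the mean log2 change was -0.20 ± 0.03 (SD, n = 4 pairs). A two-sided exact sign-flip permutation test gave p = 0.125, the smallest that 4 pairs allow, and 0.188 adjusted over the 3 ratios tested. The other ratios tested were Ifnar2 over Ifnar1, lower in 2 of 4 pairs with an exact permutation p of 1, and Jak1 over Tyk2, lower in 4 of 4 pairs by a factor of 0.934 (exact permutation p = 0.125, 0.188 adjusted). These ratios were chosen after the values had been seen. Jak1 over Jak2 and Socs3 over Socs1, given under other observations, were not tested.

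Jak1, the kinase shared by both receptors, was the steadiest of the 7. It was at 38.0, 39.5 and 41.5 FPKM in vehicle replicates 1 to 3 and at 40.5, 39.0 and 39.7 FPKM in S100A8/A9 replicates 1 to 3, the treated values lying inside the range of the vehicle values. The means were 39.7 ± 1.74 and 39.7 ± 0.739 FPKM (SD, n = 3 each). The log2 difference was 0.00 ± 0.09 (SE), with an interval from 0.868 to 1.16 as a ratio of FPKM + 1. In replicate 4 Jak1 was at 40.8 FPKM in the vehicle and 42.8 FPKM in the S100A8/A9 library. Jak1 (ENSMUSG00000028530) is on chromosome 4, reverse strand, from 101152367 to 101265282 (mm10), and shares exonic positions with Raver2 on the other strand, which was at no more than 0.160 FPKM in replicates 1 to 3.

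Tyk2, the kinase of IFNAR1, was at 19.8, 18.4 and 21.0 FPKM in vehicle replicates 1 to 3 and at 21.5, 18.9 and 24.2 FPKM in S100A8/A9 replicates 1 to 3. In replicate 4 it was at 18.8 FPKM in the vehicle and 20.3 FPKM in the S100A8/A9 library. The treated library was higher in all 4 pairs, with ratios of 1.08, 1.03, 1.15 and 1.08, but S100A8/A9 replicate 2 lay below vehicle replicates 1 and 3. For Tyk2 the log2 difference was 0.11 ± 0.12 (SE), for which limma gave an adjusted p of 1 without the block and 0.784 with it. Its interval ran from 0.896 to 1.31 as a ratio of FPKM + 1. Tyk2 (ENSMUSG00000032175) is on chromosome 9, reverse strand, from 21104068 to 21131243 (mm10). The antisense gene 1700084C06Rik overlaps its exons and was at 0 in 5 of 6 libraries and at 0.168 FPKM in the other.

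Of the other JAK kinases, Jak2, which IFNGR2 carries, was at 29.8 ± 5.58 FPKM in vehicle and 31.4 ± 5.41 FPKM in S100A8/A9 libraries (SD, n = 3 each). Jak3, the kinase of the common gamma chain of cytokine receptors, was at 8.75 ± 1.15 and 9.03 ± 1.93 FPKM (SD, n = 3 each). Of the 4 JAK genes 0 passed in limma with or without the block, 0 had an unadjusted p under 0.05 in either fit, and their median log2 difference was 0.05.

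**Figure D3:**
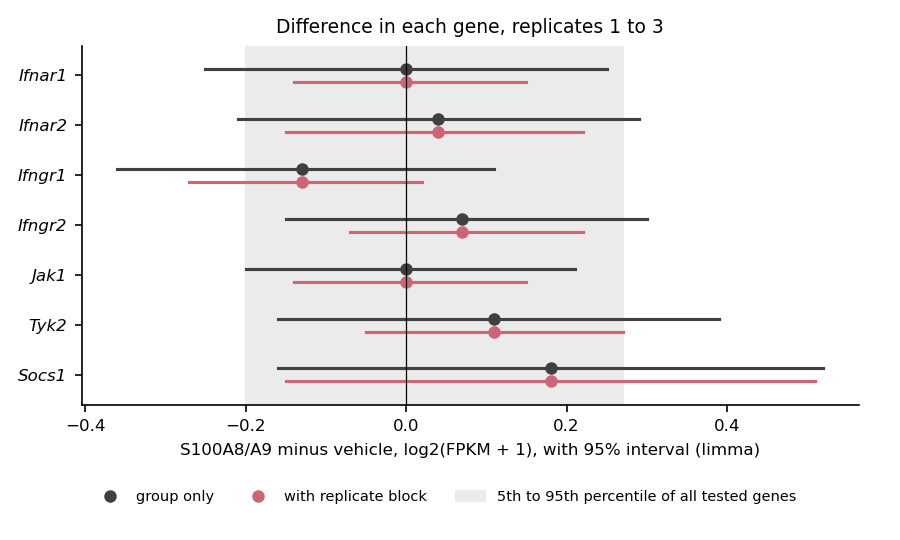
Difference between S100A8/A9 and vehicle for each tested gene on the log2(FPKM + 1) scale, with its 95% interval from limma, without the replicate block (dark grey) and with it (red). Each interval includes 0, and the point estimates lie between -0.13 and 0.18, inside the band that holds the 5th to 95th percentile of all tested genes (-0.20 to 0.27).

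Socs1 encodes a small inhibitor that binds JAK kinases and receptors and is itself a known interferon target. It was low, at 1.44, 1.75 and 1.66 FPKM in vehicle replicates 1 to 3 and at 2.24, 2.18 and 1.53 FPKM in S100A8/A9 replicates 1 to 3, values worth roughly 101 to 164 reads. S100A8/A9 replicates 1 and 2 lay above every vehicle library of that table, and S100A8/A9 replicate 3 lay below vehicle replicates 2 and 3. In replicate 4 Socs1 was at 2.22 FPKM in the vehicle and 2.83 FPKM in the S100A8/A9 library, or 206 and 275 reads in the unit of that table. Within pairs, S100A8/A9 over vehicle was 1.56, 1.25, 0.922 and 1.27 in replicates 1 to 4, a geometric mean of 1.21 over replicates 1 to 3 and 1.23 over all 4. The means were 1.62 ± 0.160 FPKM in vehicle and 1.98 ± 0.392 FPKM in S100A8/A9 libraries (SD, n = 3 each). The log2 difference was 0.18 ± 0.15 (SE), for which limma gave an adjusted p of 1 without the block and 0.840 with it. Its 95% interval ran from 0.896 to 1.44 as a ratio of FPKM + 1, a scale that understates changes of low genes, and from 0.846 to 1.71 with a pseudocount of 0.1. Socs1 (ENSMUSG00000038037) is on chromosome 16, reverse strand, from 10782240 to 10785536 (mm10).

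The 250 bases before the annotated start of Socs1 are shown because they carry the letters of an interferon response site that the promoters of the receptors and kinases lacked. The sequence is from RefSeq on GRCm38.p6 (chr16:10785537-10785786, reverse strand), 5′ to 3′. Capitals mark 2 overlapping matches to the core of the interferon-stimulated response element, GAAA, any 2 bases and GAAA.
Socs1: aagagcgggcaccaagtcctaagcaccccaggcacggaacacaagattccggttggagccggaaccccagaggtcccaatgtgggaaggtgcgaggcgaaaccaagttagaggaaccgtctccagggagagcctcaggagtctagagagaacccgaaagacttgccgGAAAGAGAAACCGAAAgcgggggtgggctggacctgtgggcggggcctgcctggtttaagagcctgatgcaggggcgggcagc
This core was found in 2.98% of 32851 promoter windows of 250 bases, on either strand, and each match also holds AANNGAAA. In the windows of Ifnar1, Ifnar2, Ifngr1, Ifngr2, Jak1 and Tyk2 neither motif occurred, and Ifnb1 had AANNGAAA alone. TTCNNNGAA, the letters of the gamma-activated site, occurred in 1 of the 8 windows, that of Ifnar2, and in 7.02% of all windows. The NF-kB letters occurred in the windows of Ifnb1 and Ifngr2. Absence says only that the letters are not in this window.

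Set beside 14 interferon-stimulated genes, the receptor and kinase genes differed little between groups, and a difference of the low gene Socs1 was not resolved. These 14 had a median log2 difference of 1.31 in replicates 1 to 3, and all 14 differences were above 0. With the replicate block 12 of them passed in limma as higher, against 0.518% of all tested genes, and without it 0 passed. An unadjusted p under 0.05 was found in limma for 13 without the block and 14 with it, against 3.02% and 7.97% of all tested genes. Those that passed with the block were Ifit1, Ifit2, Ifit3, Mx1, Mx2, Oas1a, Oasl1, Oasl2, Rsad2, Usp18, Cxcl10 and Rtp4. Of the 12 calls, 8 held without replicate 1, 3 without replicate 3 and 0 with all 8 libraries. That they were higher in these libraries was already known when they were listed. Ifit2, an RNA-binding antiviral gene, had the largest difference of the list, 1.75 ± 0.18 (SE with the block, 0.52 without it). Oasl2, a relative of the oligoadenylate synthetases, had the highest level, 31.8 ± 10.1 FPKM in vehicle and 94.5 ± 49.3 FPKM in S100A8/A9 libraries (SD, n = 3 each). The median within-pair log2 ratio of the 14 was 1.72, 1.35, 1.22 and 0.28 in replicates 1 to 4, and that of Socs1 alone was 0.64, 0.32, -0.12 and 0.35. Replicate 1 was the highest for each, and in replicate 4 the value of Socs1 was not below that of the list. Ratios of the 6 receptor and kinase genes stayed between -0.21 and 0.21 in the 4 pairs.

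**Figure D4:**
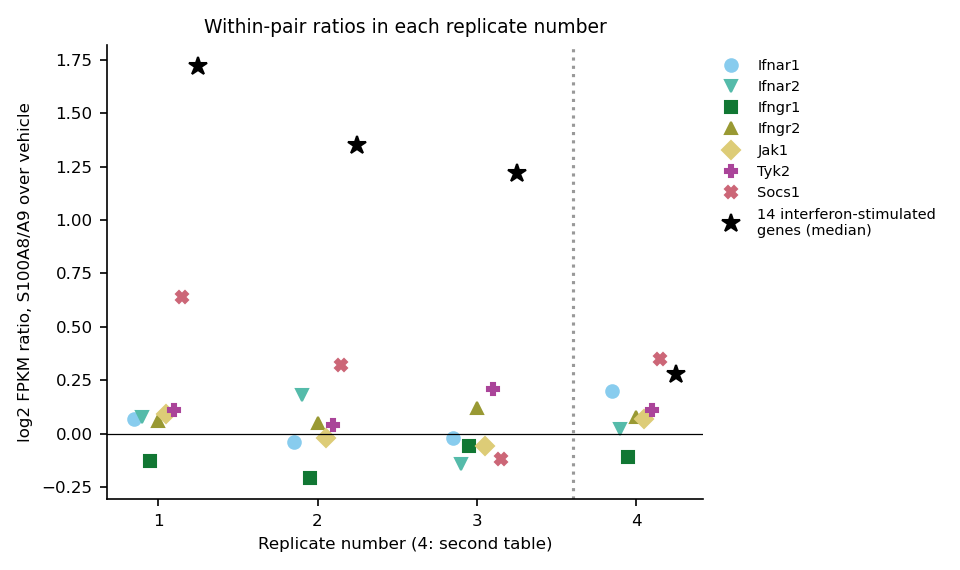
Log2 ratio of FPKM with S100A8/A9 over vehicle within each replicate number, for 7 genes and for the median of 14 interferon-stimulated genes (stars). The dotted line parts the separately made replicate 4. Stars lie between 1.22 and 1.72 in replicates 1 to 3 and at 0.28 in replicate 4, and the receptor and kinase genes lie near 0 throughout.

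Among 7 STAT and IRF factors, 1 passed as higher with the block, 0 passed without it and 0 passed as lower. All 7 differences were above 0, with a median log2 difference of 0.43. An unadjusted p under 0.05 was found in limma for 4 without the block and 5 with it, against 3.02% and 7.97% of all tested genes. The gene that rose was Stat2, a subunit of the factor that type I interferon activates, at 32.4 ± 4.99 FPKM in vehicle and 63.9 ± 11.0 FPKM in S100A8/A9 libraries (SD, n = 3 each; adjusted p = 0.0289 with the block and 0.736 without it, by limma). In replicate 4 Stat2 was at 16.9 and 20.0 FPKM, and its call was lost without replicate 3 (adjusted p = 0.0730, limma with the block) and with all 8 libraries (0.259). Irf7, which amplifies interferon production, had the largest difference, 1.02 ± 0.16 (SE with the block, 0.30 without it). For Irf7 limma with the block gave an adjusted p of 0.0684. Of 13 genes whose products lead to interferon beta transcription, from TLR4 to the kinase TBK1, 0 passed in either limma fit, with a median of 0.14, and 3 without the block and 5 with it had an unadjusted p under 0.05 (3.02% and 7.97% of all tested genes). Ddx58, the gene of the RNA sensor RIG-I, had the largest difference of these, 1.09 ± 0.16 (SE, with the block; adjusted p = 0.0570 in limma with the block). Tbk1 was at 27.5 ± 1.65 FPKM in vehicle and 30.4 ± 0.918 FPKM in S100A8/A9 libraries (SD, n = 3 each).

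Of the 8 genes of the SOCS family 0 passed in either limma fit and 0 had an unadjusted p under 0.05, with a median log2 difference of 0.05 and a range from -0.12 to 0.24. Socs1 was the lowest of the 8 in mean FPKM. Socs2, a brake on growth hormone signaling, was the most abundant, at 29.4 ± 6.52 FPKM in vehicle and 29.7 ± 6.95 FPKM in S100A8/A9 libraries (SD, n = 3 each). Cish had the largest difference, 0.24 ± 0.25 (SE, without the block). Socs3, a brake on the IL-6 receptor, was at 3.23, 3.13 and 3.35 FPKM in vehicle replicates 1 to 3 and at 2.68, 2.80 and 3.24 FPKM in S100A8/A9 replicates 1 to 3. In replicate 4, by contrast, it was at 12.2 FPKM in the vehicle and 24.3 FPKM in the S100A8/A9 library. Socs3 lies outside the rule for named genes and is given because replicate 4 differed from the others.

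Among 12 other brakes on JAK-STAT signaling, 1 passed as higher with the block, 0 passed without it and 0 passed as lower. Limma gave 1 an unadjusted p under 0.05 in each fit, against 3.02% of all tested genes without the block and 7.97% with it. That gene was Usp18, whose product binds IFNAR2 and blocks its JAK1. It was at 10.7, 8.36 and 4.89 FPKM in vehicle replicates 1 to 3 and at 26.4, 21.8 and 11.3 FPKM in S100A8/A9 replicates 1 to 3, a geometric mean ratio of 2.45 (adjusted p = 0.00917 with the block and 1 without it, by limma). Replicate 4 had Usp18 at 6.23 FPKM in the vehicle and 5.43 FPKM in the S100A8/A9 library, so the direction was opposite there, and with all 8 libraries the adjusted p from limma with the block was 0.337. Ptprc, which encodes the phosphatase CD45, was the most abundant of the 12, at 76.3 ± 8.57 and 80.1 ± 3.19 FPKM (SD, n = 3 each). Of 10 tested targets that respond preferentially to interferon gamma, 2 passed as higher with the block, Gbp5 and Igtp, and 0 passed without it. The median log2 difference of the 10 was 0.53. An unadjusted p under 0.05 was found in limma for 6 without the block and 7 with it, against 3.02% and 7.97% of all tested genes. In limma with the block both calls were lost without replicate 1 (adjusted p of 0.0778 and 0.0774) and without replicate 3 (0.0875 and 0.0803). In replicate 4 the median within-pair log2 ratio of the 10 was -0.02, with 3 of 10 higher, Gbp5 was at 3.28 FPKM in the vehicle and 2.95 FPKM in the S100A8/A9 library, and Igtp was at 11.2 and 13.7 FPKM. Irgm1, a GTPase of host defense, had the largest difference of these, 0.94 ± 0.14 (SE, with the block; adjusted p = 0.0628 in limma with the block). Irf8, a factor of dendritic cell and macrophage development, was the most abundant, at 35.2 ± 5.0 and 39.4 ± 11.3 FPKM (SD, n = 3 each).

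Of the other receptor chains for interferons and IL-10 family cytokines, 3 of 6 were tested, 0 passed in either limma fit and 0 had an unadjusted p under 0.05. Il10ra, the ligand-binding chain of the IL-10 receptor, had the largest difference, 0.13 ± 0.11 (SE, without the block). Ifnlr1, the chain particular to type III interferon, stayed under the filter at 0.444 to 0.827 FPKM. In replicate 4 it was at 2.28 FPKM in the vehicle and 2.13 FPKM in the S100A8/A9 library.

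**Figure D5:**
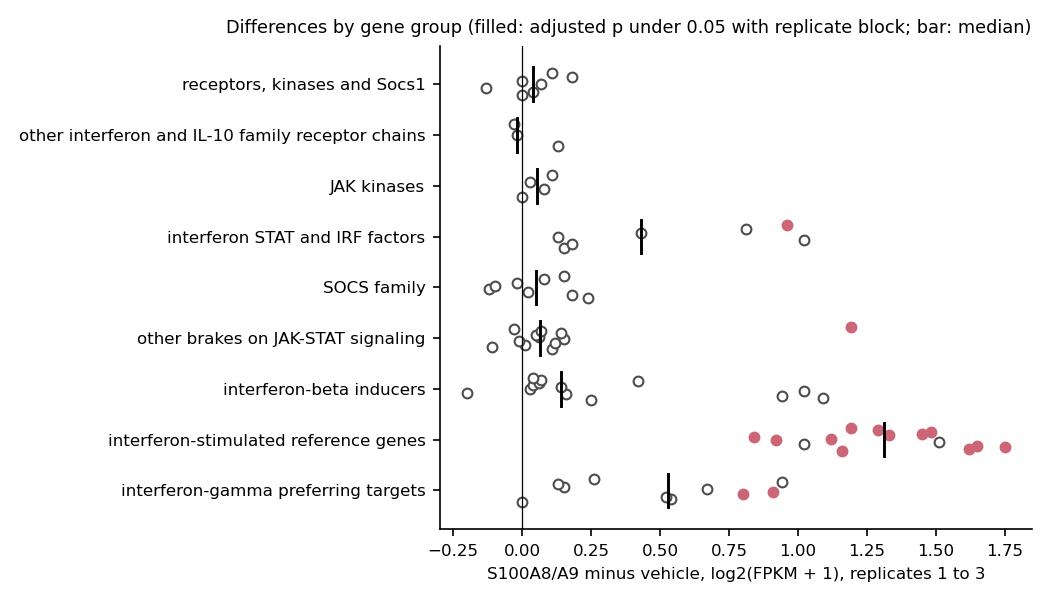
Difference between S100A8/A9 and vehicle in replicates 1 to 3 on the log2(FPKM + 1) scale for each tested gene of each group (points), with the group median (bar). Filled points passed an adjusted p under 0.05 in limma with the replicate block. The groups of receptors, kinases and SOCS genes have medians of -0.02 to 0.05, and the interferon-stimulated genes lie between 0.84 and 1.75.

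Over the 6 libraries of replicates 1 to 3 the levels of the 8 genes ran, from high to low, Ifngr1 at 45.1 ± 3.48 FPKM, Ifnar2 at 39.9 ± 2.83, Jak1 at 39.7 ± 1.20, Ifnar1 at 28.1 ± 2.01, Ifngr2 at 24.9 ± 1.5, Tyk2 at 20.6 ± 2.11 and Socs1 at 1.80 ± 0.335 FPKM (SD, n = 6), with Ifnb1 last. Neighbors in this order whose ranges did not meet were Jak1 and Ifnar1, Tyk2 and Socs1, and Socs1 and Ifnb1. Ifnar2 was above Jak1 in 3 of 6 libraries, so these could not be ordered, and Ifngr1 was above Ifnar2 in 5 of 6. Ifnar1 was above Ifngr2, and Ifngr2 above Tyk2, in 6 of 6 libraries, although their ranges met. In replicate 4 the order differed, since Ifnar2 was below Ifnar1, with a ratio of 0.835 with vehicle and 0.738 with S100A8/A9 against 1.30 to 1.61 in replicates 1 to 3. Levels set across the tables carry the difference in how the authors made them and any difference between the cultures. These cannot be told apart.

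The genes whose profile over the 6 libraries was most like that of Socs1 were Rpl31, Sgk1, Cacybp, Azi2 and Xrn2. Likeness was the root mean square difference of log2(FPKM + 1) after each gene was centred on its own mean, among 6440 genes averaging 5 FPKM or more, provisional gene models excluded. It was 0.044 for Rpl31, a ribosomal protein gene, 0.049 for Sgk1, a kinase gene, 0.051 for Cacybp, 0.061 for Azi2 and 0.065 for Xrn2, an RNA exonuclease gene. A gene with no variation at all would have scored 0.155, and 744 genes came nearer than that. Adding 1 to the FPKM compresses changes of Socs1, which is low, more than those of these genes. In replicate 1, from vehicle to S100A8/A9, Socs1 went from 1.44 to 2.24 FPKM and Rpl31 from 197 to 258 FPKM. The Socs1 values also rest on few reads. In replicate 4, where Socs1 was higher with S100A8/A9, Rpl31 was at 259 FPKM in the vehicle and 231 FPKM in the S100A8/A9 library, and Sgk1 at 231 and 243 FPKM.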

How the data were processed

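The 8 libraries were made from poly(A) RNA with random primers for Illumina sequencing, per the labels' protocols. Since these mention no strand marking, reads of overlapping genes on opposite strands cannot be separated. Tools named in the submitters' processing notes, without their roles, are HISAT2, Subread, featureCounts and DESeq2 1.34.0, and the build is mm10. The authors deposited 2 separately made tables of values that were read as FPKM, since no header states the unit. This reading rests on their range and, in replicate 4 alone, on clear steps of whole reads. In replicate 4, 98.5% and 98.8% of low values came out as whole reads (tolerance 0.01) when multiplied by exon length and scaled, against 4.02% to 6.14% in replicates 1 to 3, so read numbers there are rough. The limit of 3 reads for a value of 0 covers counting error only. The series table equalled the per-sample tables. Libraries were grouped by title.

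The test was limma-trend 3.58.1 in R 4.3.3 on log2(FPKM + 1) of replicates 1 to 3, two-sided, with Benjamini-Hochberg adjustment over all 11387 tested genes and a threshold of 0.05. It was tested on simulated data. Deviations from the group means correlated at 0.59, 0.25 and 0.52 between libraries of the same replicate number and at -0.53 to -0.01 otherwise. Deviations within a group cancel out, so the negative values follow in part from the positive ones and are no separate evidence. From the positive values the numbers were taken to pair libraries, and the fit with the replicate block is given beside. What a number stands for is not in the labels.

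Members and gene lists were chosen with earlier results of these data known. All 8 members were named in full. From each list the called genes, the most abundant and the one with the largest difference were named, and the 5 genes most like Socs1. A gene that this rule would name is not reported here. Symbols matched all 55450 genes of the first table and 24388 of 24848 in the second. Positions and exon lengths are from GENCODE on mm10, promoters from RefSeq on GRCm38.p6. Marker lists for 9 cell types were examined, and of monocyte, neutrophil, B cell, erythroid and stromal markers 3 of 4, 1 of 8, 0 of 4, 1 of 5 and 0 of 4 reached 1 FPKM in all 6 libraries. Of plasmacytoid dendritic cell and of T and NK cell markers, 3 of 7 and 1 of 6 did. Other scalings, pseudocounts, filters and sets of libraries were tried as alternatives.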

Additional observations from a re-analysis of the deposited data

How the results depend on the processing

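None of the 7 tested genes was called under any of 21 alternatives (20 for Socs1), and the lowest adjusted p from limma was 0.486, for Ifngr1, whose unadjusted p was 0.0197, 0.0290 and 0.0355 with the block and, in turn, median-of-ratios factors, all 8 libraries and no replicate 3. Of 146 values, 126 kept their sign and 20 changed it, all of Ifnar1, Ifnar2 or Jak1 and all within 0.06 of 0 on the log2 scale. Ifnar1 was at -0.03 with median-of-ratios factors, with or without the replicate block, at -0.05 after upper-quartile scaling and at -0.06 after quantile normalization. Leaving out vehicle replicate 2 or treated replicate 1 or 3 gave -0.06 to -0.004, and it was at -0.03 with the block without replicate 1. Ifnar2 was at -0.02 with upper-quartile factors, -0.03 with quantile normalization, -0.02 without vehicle replicate 2 or S100A8/A9 replicate 1, and -0.03 with the block without replicate 2. Jak1 was at -0.03 with median-of-ratios factors in either fit, -0.05 after upper-quartile scaling and -0.06 after quantile normalization. Over the fits that left out a library or a replicate number it ran from -0.04, with the block without replicate 1, to 0.04, and it was below 0 without replicate 1 of either group. Socs1 ranged from 0.07, with the block without replicate 1, to 0.31, with the block without replicate 3. Over all genes the count of 0 became 59 with the replicate block, 62 with the block and a pseudocount of 0.1 (chosen after seeing the data) and 3 with the block and median-of-ratios factors. It was 0 with the block without the filter or with all 8 libraries. Leaving out single libraries gave 0 to 1 without the block, and leaving out a replicate number with it gave 42, 95 and 5 for replicates 1, 2 and 3. Of the 66 tested genes of the pathway lists, 0 passed without the block, and 15 with it, 14 with the block and a pseudocount of 0.1, and 3 with median-of-ratios factors, namely Ifit1, Usp18 and Rtp4. Without replicate 1, 2 or 3 this count was 11, 19 and 3. Besides the leave-one-out fits named with them, the calls of Stat2, Gbp5 and Igtp were lost with median-of-ratios factors (0.0857, 0.0857 and 0.135) and with all 8 libraries (0.259, 0.361 and 0.259). Without the filter all 15 were lost. Usp18, Ifit1 and Rsad2 kept their calls without each replicate number. The block changed the calls of the 15 list genes and no other call of a named gene. Fold changes near those of the receptor genes lie within the spread of 3 libraries a group, and depth limits what can be said of Ifnb1. The cause of these shifts was not tested.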

Other observations

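The 4 within-pair log2 ratios of each of the 7 genes held no outlying replicate number by Dixon's ratio, which was at most 0.572 and below its critical value. Socs3 over Socs1 was 2.25, 1.79 and 2.01 in vehicle replicates 1 to 3 and 1.20, 1.29 and 2.11 in S100A8/A9 replicates 1 to 3. In replicate 4 it was 5.51 with vehicle and 8.58 with S100A8/A9, higher than in any library of the first table. Jak1 over Jak2 was 1.05 to 1.55 in replicates 1 to 3 and 0.608 and 0.606 in replicate 4, so the within-pair values were close while the tables differed.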
